A study of Mus musculus with 8 samples.

Results

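The mitochondrial chaperones and proteases described here are 9 nuclear genes, Hspd1, Hspe1, Hspa9, Dnaja3, Lonp1, Clpp, Afg3l2, Yme1l1 and Htra2, chosen by name from the 24972 genes of the deposited expression table. All 9 were present and passed the filter on low values. Transcript levels were measured by sequencing total RNA of primary mouse embryonic fibroblasts, taken at embryonic day 14 and passaged 2 times. None of the cultures was treated. The 4 genotypes, with 2 libraries each, were wild type (WT), cells with 1 disrupted Tfam allele (Tfam+/-), cells lacking Zbp1 (Zbp1-/-) and cells with both changes (Tfam+/-Zbp1-/-). Tfam+/- cells keep 1 intact Tfam allele. The labels do not say whether paired libraries were made from different embryos, so p-values measure the spread between these libraries, which may be technical.

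Most mitochondrial proteins are made in the cytosol, threaded through the outer and inner membranes and folded in the matrix. Hspa9 (mitochondrial Hsp70, mortalin) pulls precursors into the matrix, Dnaja3 (Tid1) is a J-domain partner of that Hsp70, and Hspd1 (Hsp60) with its lid Hspe1 (Hsp10) forms the chamber in which matrix proteins fold. Lonp1 and Clpp degrade matrix proteins, Afg3l2 and Yme1l1 are membrane-anchored AAA proteases that face the matrix and the intermembrane space, and Htra2 (Omi) is a serine protease of the intermembrane space. Transcripts of several of these genes are widely used as readouts of the mitochondrial unfolded protein response. Tfam packages mitochondrial DNA and is a factor of its transcription, and Zbp1 is a sensor of nucleic acids. The genotypes thus allow the chaperone and protease transcripts to be compared with less Tfam, with and without Zbp1.

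Hspd1 and Hspe1 lie head to head on mouse chromosome 1 and are known to share a bidirectional promoter. Hspd1 spans 55077833 to 55088243 on the minus strand and Hspe1 spans 55088148 to 55091317 on the plus strand (RefSeq, GRCm38.p6, the assembly also named mm10), an overlap of 96 bases. Between the main transcript starts of GENCODE M21 there are 107 bases, which are also an annotated 5′ UTR of another Hspd1 transcript. The sequences below are shown because both genes of the pair were lowest in the same 2 libraries and both promoter windows hold a heat shock element, the binding motif of heat shock factors. Capitals mark pairs of its 5-base unit, tail to tail (TTCNNGAA) or head to head (GAANNTTC). The first is chr1:55088053-55088082, plus strand, and the second chr17:56990284-56990313, plus strand, a single pair past the RefSeq start of Clpp; both are RefSeq promoter sequence, 5′ to 3′.
Hspd1 and Hspe1: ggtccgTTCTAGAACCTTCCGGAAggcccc
Clpp: ccgggtgttgtagTTCCGGAAgccaagccg
In the Hspd1 and Hspe1 stretch 3 pairs overlap (TTCTAGAA, GAACCTTC and TTCCGGAA). Its nearer edge lies 35 bases from the Hspd1 start and 56 bases from the Hspe1 start, both starts being the main ones of GENCODE M21. By the RefSeq coordinates above, the stretch lies within the span of Hspd1. RefSeq windows of 250 bases before to 50 after a start were at hand for 6 of the 9 genes (7 windows). TTCNNGAA, which reads the same on both strands, was in 3 of these 7 windows (Clpp, Hspd1 and Hspe1) and in 8.52% of 32851 windows of all genes. GAANNTTC was in 2 of the 7 (Hspd1 and Hspe1) and in 7.86% of all windows. CCGGAAG, the core of ETS factor sites, searched on both strands and overlapping the capitals above, was in 5 of the 7 (Clpp, Dnaja3, Hspd1, Hspe1 and Yme1l1) and in 8.86% of all windows. TGATGNAAN, a stress response element, was in 0 of the 7 and 3.95% of all windows, which says only that these letters are not in these windows. The Hspd1 and Hspe1 windows overlap, so they are not separate observations.

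Library totals were 16752800 to 18303000 normalized counts (the authors' scaled counts per gene), and 16051 to 16261 genes per library were above 0. In the check of the labels, Tfam was at 629 and 610 (WT), 278 and 365 (Tfam+/-), 675 and 471 (Zbp1-/-) and 424 and 375 (Tfam+/-Zbp1-/-) normalized counts. Zbp1 was at 64.6 and 69.8 in Tfam+/- and at 0.862 to 7.34 in the other 6 libraries, WT included. Across genes, the 2 libraries of a genotype correlated at 0.992 in WT and in Tfam+/-Zbp1-/- but at 0.973 in Tfam+/- and 0.975 in Zbp1-/-. Tfam+/- replicate 1 and Zbp1-/- replicate 2 stood apart from the other 6 in the same way, so the tests of the 9 genes are also given with a model term shared by these 2 libraries and without them. None of the 9 fibroblast markers was at 0 throughout. Their summed normalized counts were 382448 and 382562 (WT), 333960 and 413677 (Tfam+/-), 468021 and 550400 (Zbp1-/-) and 421956 and 428080 (Tfam+/-Zbp1-/-). These sums were highest in the 4 libraries without Zbp1. Sums of 8 leukocyte markers were 4304 to 4333 in WT, 4919 to 5374 in Tfam+/-, 2515 to 2760 in Zbp1-/- and 2184 to 2231 in Tfam+/-Zbp1-/-, and none of the 8 was at 0 throughout. Of the 5 skeletal muscle markers, only 1 passed the filter on low values. Their sums were 474 and 489 (WT), 650 and 859 (Tfam+/-), 231 and 297 (Zbp1-/-) and 242 and 246 (Tfam+/-Zbp1-/-). These sums were lowest in the 4 libraries without Zbp1. Sums of the epithelial (186 to 493), endothelial (233 to 386), Schwann cell (88.2 to 236) and erythroid (0 to 3.93) markers were below those of leukocytes in every library.

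Hspd1 encodes the subunit of the Hsp60 chamber. Its normalized counts were 10561 and 10989 (WT), 9688 and 12755 (Tfam+/-), 8676 and 7218 (Zbp1-/-) and 10241 and 10087 (Tfam+/-Zbp1-/-). Both Zbp1-/- libraries were the lowest of the 8, and the Tfam+/- libraries were on either side of WT. Hspe1, the lid of the same chamber, was at 3234 and 3360 (WT), 3417 and 3612 (Tfam+/-), 2783 and 2779 (Zbp1-/-) and 3213 and 3362 (Tfam+/-Zbp1-/-). The Zbp1-/- libraries were again the 2 lowest and both Tfam+/- libraries the 2 highest. Among all genes tested, 2.98% had both Zbp1-/- libraries below the other 6, and 4.73% had both Tfam+/- libraries above the other 6. The order of the genotype means was the same for both genes, with Zbp1-/- lowest, then Tfam+/-Zbp1-/-, WT and Tfam+/-, but WT and Tfam+/-Zbp1-/- differed little and overlapped for Hspe1. RefSeq names 5 pseudogenes of Hspd1 and 6 of Hspe1, and the sources used here do not say how such copies were counted. In bulk RNA, fewer cells of a type and less RNA per cell cannot be told apart.

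Hspa9 (chromosome 18, 34937414 to 34954351), the matrix Hsp70, was the most even of the 9, with normalized counts of 16026 and 16293 (WT), 14394 and 16932 (Tfam+/-), 15992 and 14502 (Zbp1-/-) and 16046 and 15700 (Tfam+/-Zbp1-/-). Its highest library was 1.18 times its lowest, and the 2 low libraries were the 2 that stood apart. Dnaja3 (chromosome 16, 4684070 to 4707695) was at 889 and 946 (WT), 985 and 861 (Tfam+/-), 972 and 1090 (Zbp1-/-) and 971 and 1013 (Tfam+/-Zbp1-/-). Its WT libraries were below all libraries without Zbp1, and the Tfam+/- libraries fell on both sides of WT.

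Lonp1 (chromosome 17, 56614297 to 56626903), the matrix Lon protease, was at 2170 and 2151 (WT), 2572 and 2140 (Tfam+/-), 2249 and 2842 (Zbp1-/-) and 2161 and 2141 (Tfam+/-Zbp1-/-) normalized counts. Clpp (chromosome 17, 56990264 to 56996371), the proteolytic part of ClpXP, was at 502 and 474 (WT), 741 and 521 (Tfam+/-), 546 and 705 (Zbp1-/-) and 546 and 571 (Tfam+/-Zbp1-/-). For both genes the 2 libraries that stood apart were the 2 highest. Clpp was also lower in both WT libraries than in the other 6, a pattern shared by 11.6% of all genes tested.

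Afg3l2 (chromosome 18, 67404764 to 67449192), a subunit of the protease facing the matrix, was at 1056 and 1180 (WT), 1298 and 1055 (Tfam+/-), 1173 and 1255 (Zbp1-/-) and 1149 (both Tfam+/-Zbp1-/- libraries) normalized counts. Yme1l1 (chromosome 2, 23155442 to 23199260), which faces the intermembrane space, was at 3868 and 3870 (WT), 1667 and 3597 (Tfam+/-), 3752 and 1845 (Zbp1-/-) and 3929 and 3903 (Tfam+/-Zbp1-/-). The 2 low values of Yme1l1 were in the libraries that stood apart, and the other 6 lay between 3597 and 3929. Htra2 (chromosome 6, 83051266 to 83054571) was at 773 and 771 (WT), 1158 and 788 (Tfam+/-), 775 and 1166 (Zbp1-/-) and 866 and 892 (Tfam+/-Zbp1-/-). Its 2 highest values were in the same 2 libraries, and both WT libraries were below the other 6. Spans of other genes overlap Yme1l1 (Mastl) and Htra2 (Loxl3 and Aup1), and the sources used here do not say whether counting used strand.

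**Figure D1:**
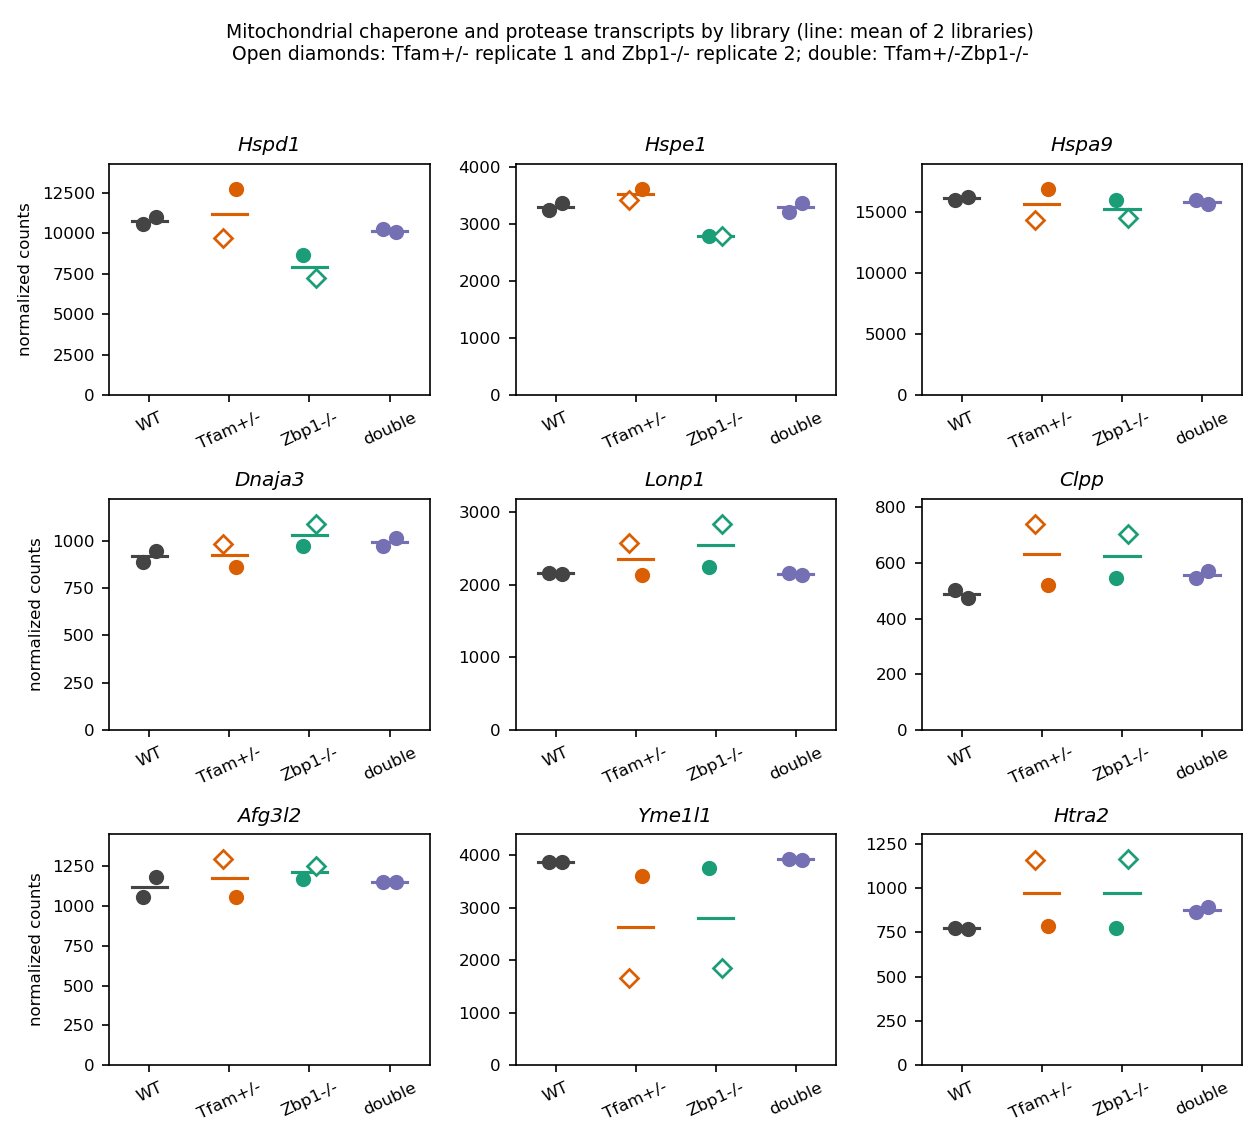
Normalized counts (y axis, from 0) of the 9 genes in each library, by genotype (x axis), with a line at the mean of the 2 libraries; open diamonds are Tfam+/- replicate 1 and Zbp1-/- replicate 2. Hspd1 and Hspe1 were lowest in both Zbp1-/- libraries, whereas Yme1l1 was low (1667 and 1845) and Lonp1, Clpp, Afg3l2 and Htra2 were highest in the 2 diamonds.

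Per kilobase of exon, a scale that assumes the deposited values are not already divided by length, Hspa9 had the highest mean level over the 8 libraries, 5161 normalized counts per kilobase. Hspe1 (4160) and Hspd1 (4138) followed at nearly the same level, and the range of Hspd1 over libraries (2979 to 5264) covered that of Hspe1. The proteases and Dnaja3 were lower, from Lonp1 (780), Yme1l1 (702), Clpp (586) and Htra2 (521) to Afg3l2 (376) and Dnaja3 (365). The ranges of neighbours overlapped in this order except between Htra2 and Afg3l2, and the range of Hspa9 lay above that of Hspe1. The ratio of Hspd1 to Hspe1 normalized counts was 3.27 (both WT libraries), 2.83 and 3.53 (Tfam+/-), 3.12 and 2.597 (Zbp1-/-) and 3.19 and 3.00 (Tfam+/-Zbp1-/-). Its 2 lowest values were in the 2 libraries that stood apart.

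None of the 9 genes passed the test in any of the 8 comparisons over all 8 libraries (limma, Benjamini-Hochberg adjusted p under 0.05 over 13267 genes). The share of all genes called was 0.731% in Tfam+/- against WT, 1.06% in Zbp1-/- against WT and 1.38% in Tfam+/-Zbp1-/- against WT. It was 5.64% in Tfam+/-Zbp1-/- against Tfam+/-, 0.415% against Zbp1-/- and 0.663% for the interaction, the effect of the Tfam genotype without Zbp1 minus that with it. Averaged over the genotypes of the other gene, it was 0.626% for Tfam+/- and 6.96% for Zbp1-/-. At an unadjusted p under 0.05 there were 2 of the 9 in Zbp1-/- against WT and in the Zbp1-/- average (Hspd1 and Hspe1 in each), 1 in the Tfam+/- average and 1 in Tfam+/-Zbp1-/- against Zbp1-/- (Hspe1 in each), and 0 in the other 4 comparisons. The share of all genes under this unadjusted threshold was not counted, so nothing is concluded from these counts. No other tool was run.

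The largest chaperonin difference was in Zbp1-/- against WT. The log2 change of Hspd1 was -0.45 ± 0.15 (SE, adjusted p 0.20) and that of Hspe1 was -0.25 ± 0.09 (adjusted p 0.22), by limma over all 8 libraries. In Tfam+/-Zbp1-/- against Zbp1-/-, the log2 change of Hspd1 was 0.36 ± 0.15 (adjusted p 0.41) and that of Hspe1 was 0.24 ± 0.09 (adjusted p 0.35), with both double-mutant libraries above both Zbp1-/- libraries for each gene. These 2 comparisons share the Zbp1-/- libraries. In Tfam+/- against WT, Hspd1 was at 0.05 ± 0.15 (adjusted p 0.88), which became 0.24 when Tfam+/- replicate 1 was left out and -0.15 when its replicate 2 was. The double mutant against Tfam+/- gave -0.13 ± 0.15 for Hspd1 (adjusted p 0.64), and -0.33 and 0.07 when the same libraries were left out, so the sign of both comparisons depends on 1 library. Averaged over Tfam genotypes, Zbp1-/- gave -0.29 ± 0.11 for Hspd1 and -0.17 ± 0.06 for Hspe1 (adjusted p 0.17 for each). Averaged over Zbp1 genotypes, Tfam+/- gave 0.20 ± 0.11 for Hspd1 (adjusted p 0.81) and 0.17 ± 0.06 for Hspe1 (adjusted p 0.55). Leaving out Tfam+/- replicate 1 or its replicate 2 moved the Hspd1 averages to -0.39 or -0.19 for Zbp1-/-, and to 0.30 or 0.10 for Tfam+/-. The median of all genes in the Zbp1-/- average was 0.12. TMM scaling (the trimmed mean of M-values) moved that median to -0.00, Hspd1 to -0.41 (adjusted p 0.088) and Hspe1 to -0.29 (adjusted p 0.049). Summed leukocyte and skeletal muscle markers were lower, and fibroblast markers higher, in all 4 libraries without Zbp1, as given above, and their part in these differences was not tested.

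With a term shared by Tfam+/- replicate 1 and Zbp1-/- replicate 2, chosen after the values were seen, the averages over genotypes keep the same estimates by construction and the spread becomes smaller. Hspd1 and Hspe1 then passed for both averages. For the Zbp1-/- average, Hspd1 (-0.29 ± 0.02) had an adjusted p of 1.4e-09 and Hspe1 (-0.17 ± 0.02) one of 1.2e-05, in a fit that called 57.5% of all genes. For the Tfam+/- average, Hspd1 (0.20 ± 0.02) had an adjusted p of 6.2e-07 and Hspe1 (0.17 ± 0.02) one of 4.9e-05, in a fit that called 25.6% of all genes. Within the pairs of genotypes, the Hspd1 change was -0.28 in Zbp1-/- against WT and -0.29 in Tfam+/-Zbp1-/- against Tfam+/-, and it was 0.21 in Tfam+/- against WT and 0.20 in Tfam+/-Zbp1-/- against Zbp1-/-. All 4 passed (adjusted p 2.8e-06, 8.0e-07, 1.5e-04 and 2.1e-04), where 35.6%, 45.6%, 15.6% and 23.8% of all genes were called. Over the 8 libraries as deposited, those against Tfam+/- and of Tfam+/- against WT changed sign with 1 left-out library, as given above. Such shares count both directions and make a call in this fit common. Most calls were higher in the Zbp1-/- average (6191 of 7631) and in Zbp1-/- against WT (3787 of 4717). The same held in Tfam+/-Zbp1-/- against Tfam+/- (4699 of 6049). Calls of lower genes were thus fewer in these 3 comparisons. In the Tfam+/- average, 1817 of 3400 calls were higher. Without the 2 libraries, the Hspd1 changes in the same 4 comparisons were -0.31, -0.33, 0.24 and 0.23, with the lone Tfam+/- and Zbp1-/- libraries assumed to vary like the others. In these 6 libraries, the genes called numbered 3 in Tfam+/- against WT (15.4% of all genes), 2 in Zbp1-/- against WT (34.3%), 3 in Tfam+/-Zbp1-/- against WT (44.8%), 6 against Tfam+/- (43.6%), 3 against Zbp1-/- (23.4%), 1 for the interaction (19.1%), 2 in the Tfam+/- average (21.6%) and 4 in the Zbp1-/- average (51.2%).

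In the averages of the fit with the shared term, the other 7 genes differed by less than Hspd1. For the Zbp1-/- average, Dnaja3 (0.14, adjusted p 0.0029), Yme1l1 (0.06, adjusted p 0.030) and Htra2 (0.09, adjusted p 0.032) passed as higher, beside an all-gene median of 0.12. After TMM scaling, without the shared term, Yme1l1 was at -0.06 and Htra2 at -0.03, so that their direction depends on the scaling, while Dnaja3 was at 0.02. For the Tfam+/- average, Htra2 passed at 0.10 (adjusted p 0.046). Htra2 and Clpp were higher in Tfam+/-Zbp1-/- against WT (0.19 and 0.20, adjusted p 0.0049 and 0.019), where 42.5% of all genes were called. The interaction was called for Yme1l1 alone among the 9 (0.17, adjusted p 0.047), where 16.9% of all genes were called.

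The 2 libraries that stood apart differed from the other library of their genotype by amounts that varied with the base composition of the transcript. For Yme1l1, whose longest coding transcript has 38.0% G and C, the log2 difference was -1.11 within Tfam+/- and -1.02 within Zbp1-/-. For Htra2 (57.1%) it was 0.55 and 0.59, for Clpp (57.8%) 0.51 and 0.37, and for Lonp1 (57.3%) 0.27 and 0.34. Hspd1 (46.8%) and Hspa9 (45.9%) were lower in these libraries, by means of -0.33 and -0.19. Dnaja3 (50.6%) and Afg3l2 (52.4%) were higher, at 0.18 and 0.20, and Hspe1 (51.7%) was at -0.04. Across the 9 genes the mean difference and GC content correlated at 0.96, and across the 12733 tested genes with a coding transcript at 0.78. The points share the same 4 libraries. For transcript length the values were -0.50 and -0.33. With the genes split into 5 equal classes of GC content, the median difference was -0.67 in the lowest class and 0.37 in the highest. The 2 libraries lay outside the range of the other 6 for 6 of the 9 genes, below it for 2 (Hspa9 and Yme1l1), beside 27.5% of all genes, and above it for 4 (Lonp1, Clpp, Afg3l2 and Htra2), beside 21.5%.

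**Figure D2:**
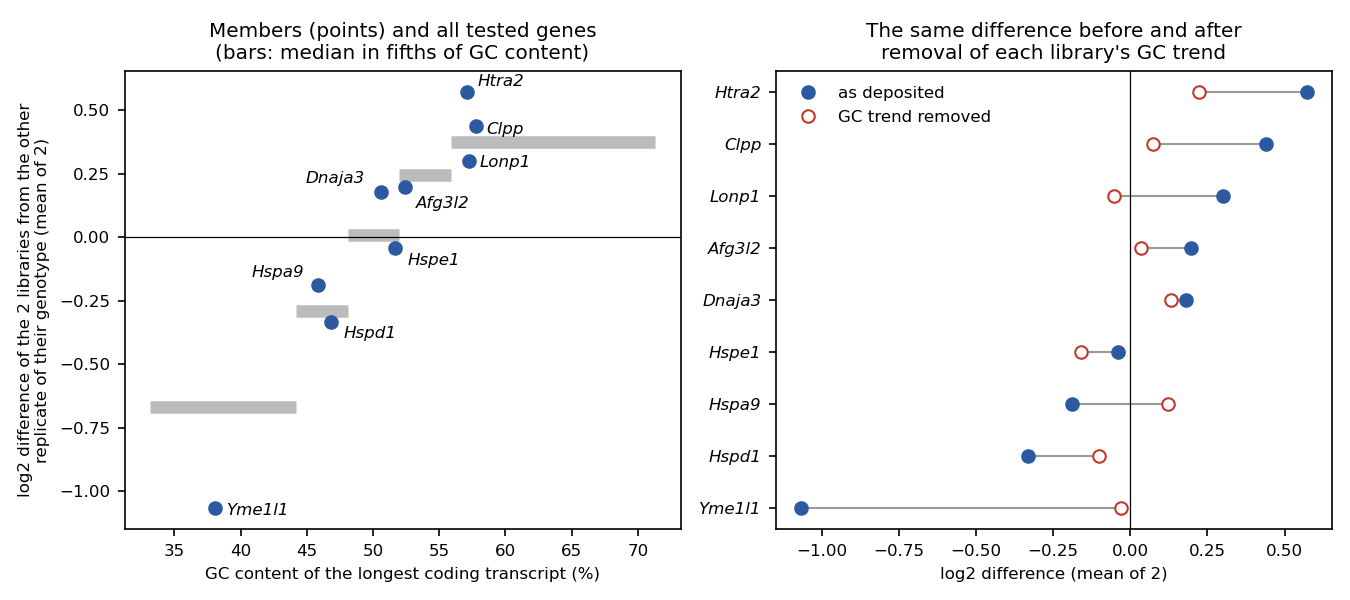
Left, mean log2 difference between the 2 libraries that stood apart and the other library of their genotype (y axis) against transcript GC content in percent (x axis) for the 9 genes, with bars at the median of all genes in each of 5 equal classes of GC content. Right, the same difference as deposited (filled) and after each library's GC trend was removed (open). Yme1l1 moved from -1.07 to -0.03, and Htra2 from 0.57 to 0.22.

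After a smooth trend of each library's deviations with GC content was subtracted, a step chosen after the values were seen that also centres each library, the mean difference was -0.03 for Yme1l1, 0.08 for Clpp, -0.05 for Lonp1, 0.04 for Afg3l2 and 0.22 for Htra2. It was 0.12 for Hspa9, 0.13 for Dnaja3, -0.10 for Hspd1 and -0.16 for Hspe1. Across all genes the correlation between the difference within Tfam+/- and that within Zbp1-/- went from 0.69 to 0.32, so part of what these libraries share is left. Yme1l1 then differed little between genotypes. Its Tfam+/- average, -0.04 with a 95% interval of -0.75 to 0.66 over all 8 libraries, became 0.00 (-0.08 to 0.08), and its Zbp1-/- average became -0.00 (-0.08 to 0.08).

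With the GC trend removed, Hspd1 and Hspe1 fell in Zbp1-/- against WT. The log2 changes by limma were -0.41 ± 0.06 (adjusted p 0.0077) for Hspd1 and -0.44 ± 0.08 (adjusted p 0.016) for Hspe1. This made 2 of the 9 genes called beside 8.02% of all genes. The Hspe1 change was -0.25 as deposited. For Hspe1 the step also widened the difference between replicates, from -0.08 to -0.20 in Tfam+/- and from -0.002 to -0.12 in Zbp1-/-. In Tfam+/-Zbp1-/- against Tfam+/-, Hspd1 fell by 0.35 (adjusted p 0.0060) and Hspa9 by 0.23 (adjusted p 0.036) on the log2 scale, beside 17.8% of all genes called, while Hspe1 was at -0.16 (adjusted p 0.21). For the Zbp1-/- average, Hspd1 was at -0.38 ± 0.04 (adjusted p 8.3e-04) and Hspe1 at -0.30 ± 0.06 (adjusted p 0.0082), beside 20% of all genes. For the Tfam+/- average, Hspd1 rose by 0.20 ± 0.04 (adjusted p 0.039), 1 of the 9 beside 5.37% of all genes, and Hspe1 was at 0.16 (adjusted p 0.16). In Tfam+/-Zbp1-/- against Zbp1-/-, Hspd1 (0.23, adjusted p 0.064) and Hspe1 (0.30, adjusted p 0.062) did not pass. In that comparison (7.39% of all genes called), in Tfam+/- against WT (3.59%), in Tfam+/-Zbp1-/- against WT (7.68%) and for the interaction (6.36%), 0 of the 9 were called. The targeted gene Tfam, not called over the 8 libraries as deposited (-0.96, adjusted p 0.16 in Tfam+/- against WT), was called after this step (-0.74, adjusted p 0.0039).

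**Figure D3:**
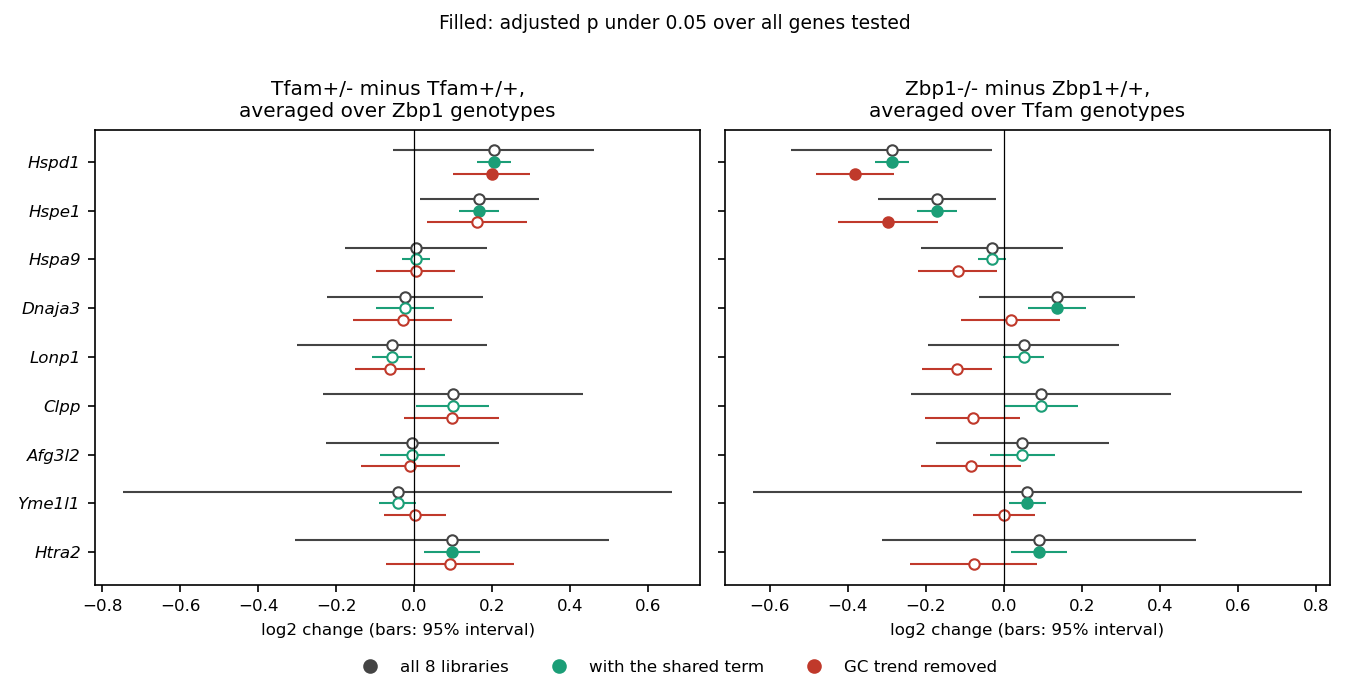
Log2 change with its 95% interval (x axis) of the 9 genes (y axis) for Tfam+/- (left) and Zbp1-/- (right), averaged over the genotypes of the other gene, from all 8 libraries, with the shared term and after removal of the GC trend; filled points have an adjusted p under 0.05. Hspd1 and Hspe1 lie to the right of 0 for Tfam+/- and to the left for Zbp1-/- in all 3 fits. The first 2 fits share their estimates by construction. Over all 8 libraries the Tfam+/- interval of Hspd1 includes 0 (-0.05 to 0.46), and the interval of Yme1l1 is the widest.

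Counting only whether libraries overlapped, 4 of the 9 genes were lower in both Zbp1-/- libraries than in both WT libraries (Hspd1, Hspe1, Hspa9 and Yme1l1), beside 16.8% of all genes, and 4 were higher (Dnaja3, Lonp1, Clpp and Htra2), beside 42.1%. In Tfam+/- against WT, 3 were higher (Hspe1, Clpp and Htra2) beside 23.3% and 1 lower (Yme1l1) beside 25.5% of all genes. In Tfam+/-Zbp1-/- against WT, 4 were higher (Dnaja3, Clpp, Yme1l1 and Htra2) beside 58.8% and 1 lower (Hspd1) beside 14.1%. In Tfam+/-Zbp1-/- against Zbp1-/-, 3 were higher (Hspd1, Hspe1 and Yme1l1) beside 26.2% and 2 lower (Lonp1 and Afg3l2) beside 23.3%. In Tfam+/-Zbp1-/- against Tfam+/-, 1 was higher (Yme1l1) beside 42.4% and 1 lower (Hspe1) beside 13.5%. As the libraries that stood apart are in the Tfam+/- and Zbp1-/- groups, these counts include their values.

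Other genes of the same pathways were taken from lists of matrix chaperones and cofactors (10), mitochondrial proteases and scaffolds (16), the import channel and receptors (16), regulators of mitochondrial stress signalling (9), endoplasmic reticulum chaperones (12) and cytosolic heat shock chaperones (16). All of them were tested, and 0 genes of any list were called over the 8 libraries in any comparison. At an unadjusted p under 0.05, the Zbp1-/- average had 3 of the cytosolic list and 1 of the other proteases, and the Tfam+/- average had 2 import genes and 1 regulator. Here too, the share of all genes under the unadjusted threshold was not counted. The genes named next were chosen from the fit with the GC trend removed, after their values were seen. For the Zbp1-/- average, 9 of the 16 cytosolic heat shock chaperones then fell and 0 rose, beside 20% of all genes called in either direction, with a list median of -0.20 beside -0.00 for all genes. With the shared term 10 fell and 1 rose (57.5% of all genes called), and in the other 6 libraries 11 fell and 1 rose (51.2%). Hspb1, a small heat shock protein, was at -0.68 (adjusted p 1.2e-04), Hsp90aa1, the inducible Hsp90, at -0.32 (adjusted p 7.4e-04), and Hsph1, an Hsp110 exchange factor, at -0.31 (adjusted p 8.3e-04). As deposited, over all 8 libraries, Hspb1 was at -0.45 (adjusted p 0.13), Hsp90aa1 at -0.24 (adjusted p 0.35) and Hsph1 at -0.21 (adjusted p 0.16), with a list median of -0.09 beside 0.12 for all genes. The Tfam+/- average of Hspb1 was -0.04 (adjusted p 0.76) with the GC trend removed.

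In the same fit and average, 20% of all genes were called in either direction, 2548 genes of which 1167 were higher. The other lists had no more calls than that share. All their calls were lower, however, and the share of all genes called as lower is smaller than 20%. Of the 10 other matrix chaperones and cofactors 0 were called, and 3 of the 16 other proteases and scaffolds fell. These were the prohibitins Phb (-0.22, adjusted p 0.019) and Phb2 (-0.15, adjusted p 0.031), which form a scaffold around the protease that Afg3l2 belongs to, and the presequence peptidase Pitrm1 (-0.14, adjusted p 0.042). Among the 16 import genes 3 fell, the channel Tomm40 (-0.26, adjusted p 0.0038) and the receptors Tomm70a (-0.19, adjusted p 0.024) and Tomm20 (-0.18, adjusted p 0.0086). Of the 12 endoplasmic reticulum chaperones, 1 fell, Hyou1 (-0.23, adjusted p 0.0022). Of the 9 regulators, 1 fell, the heat shock factor Hsf1 (-0.22, adjusted p 0.024). As deposited, over all 8 libraries, these 8 genes were closer to 0, between -0.12 (Tomm70a) and 0.01 (Phb2), and Phb2 changed sign between the 2 fits. The shared term gave other counts, with 57.5% of all genes called. It called 1 matrix gene as higher and 0 as lower, 4 and 1 of the proteases and scaffolds, 4 and 5 of the import genes, 7 and 0 of the regulators and 2 and 4 of the endoplasmic reticulum chaperones. In the other 6 libraries (51.2%) these counts were 0 and 0, 4 and 1, 3 and 5, 5 and 0, and 2 and 5.

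For the Tfam+/- average with the GC trend removed, the channel gene Tomm40 rose by 0.19 (adjusted p 0.044), Hsp90aa1 by 0.15 (adjusted p 0.048) and Jun, a stress-responsive transcription factor, by 0.23 (adjusted p 0.023). Atf5, a transcription factor linked to the mitochondrial unfolded protein response, fell by 0.20 on the log2 scale (adjusted p 0.014). The import list had 15 of its 16 genes above 0 and a median of 0.13, beside 0.00 for all genes, with 1 called, a share near the 5.37% of all genes called. With the shared term 11 import genes were called, all as higher (25.6% of all genes called), and in the other 6 libraries 10 were, all as higher (21.6%). The median of the 9 chaperones and proteases was 0.00 in this average and -0.08 in the Zbp1-/- average.

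**Figure D4:**
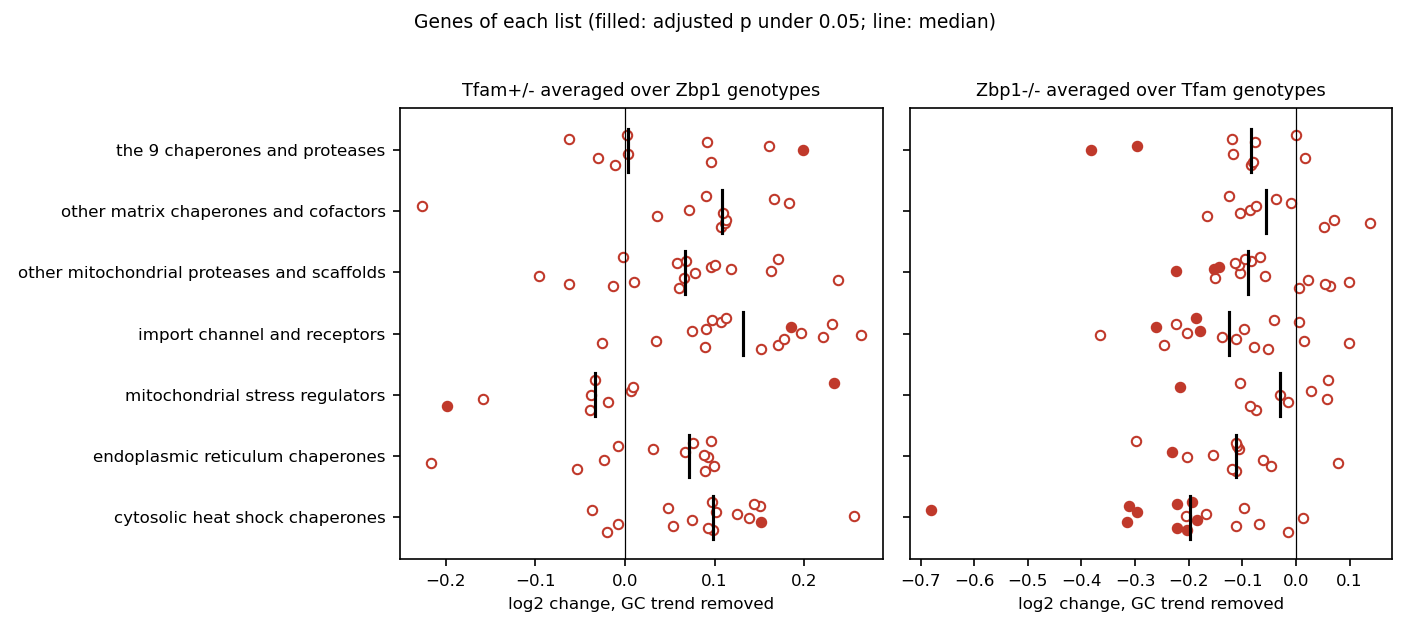
Log2 changes (x axis) of the genes of each list (y axis) for Tfam+/- (left) and Zbp1-/- (right), averaged over the genotypes of the other gene, with the GC trend removed; filled points have an adjusted p under 0.05 and vertical lines are list medians. In the Zbp1-/- panel 9 of 16 cytosolic heat shock chaperones are filled, all below 0, and the 2 filled points of the 9 chaperones and proteases are Hspd1 and Hspe1.

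Over the 8 libraries, the log2 levels of Hspd1 and Hspe1 correlated at 0.88 (Pearson), but other genes were closer to each. The 3 genes most like Hspd1 were Ncl (0.988), Nol10 (0.983) and Mapk6 (0.983), and those most like Hspe1 were Mcm6 (0.985), G3bp1 (0.977) and Ppa1 (0.976). Yme1l1 was most like Ahcyl1, Gnai3 and Rictor, and Htra2 most like Rpl4, Rpsa and Snrpc. Clpp was nearest to Prcc, Dpp9 and Sec13, Lonp1 to Adprh, Ak1 and Creld1, Afg3l2 to Shkbp1, Rad51d and Retsat, Hspa9 to Usp25, Ttc19 and Cdc42bpa, and Dnaja3 to Zfyve21, Acbd4 and Rubcn. All of these values rest on the same 8 libraries, including the 2 that stood apart, and are descriptions only.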

How the data were processed

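The authors aligned reads with STAR 2.6.1a in RNAseq Alignment 2.0.0 to mm10 with RefSeq genes and used RNA-seq Differential Expression 1.0.0, per the labels and the submitters' processing notes. The deposited values are a signal per gene, the authors' normalized counts, which are not whole. Salmon is also named among the tools, without a version. Beyond naming these tools, the sources used here do not say how reads were counted, stranded or scaled. Among low values 22.2% to 34.9% lay within 0.01 of whole reads, so count models were not run.

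Tests used log2(normalized count + 1) for the 13267 genes with a mean of at least 10. The lmFit and eBayes functions of limma 3.58.1, with a trended prior, in R 4.3.3, fitted the 4 genotypes together without covariates, with 4 residual and 2.77 prior degrees of freedom. Tests were two-sided, with Benjamini-Hochberg adjustment over all genes tested, called under 0.05, and log2 changes understate those of low genes. The code was tested on simulated data. With 2 libraries against 2, the smallest exact permutation p is 0.333. The members and lists were chosen with earlier results of these data known. All 9 members were named. Of the other lists, the rule named the called genes with the largest change, at most 3 for each list and comparison, and for each member the 3 most similar genes. Sequences and coordinates are RefSeq (GRCm38.p6), and GC content is of GENCODE M21 transcripts (12733 genes). The GC trend was a local regression with a span of 0.3. Alternatives were other pseudocounts (5 or 0.1), other filters (none, or a minimum mean of 50), TMM scaling (trimming 30% of ratios and 5% of means), a prior without trend, only the genotypes compared, the replicate block, leaving out libraries, the shared term, the other 6 libraries and the GC trend.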

Additional observations from a re-analysis of the deposited data

How the results depend on the processing

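Over the 8 libraries as deposited, 0 of the 9 genes were called in every comparison, and this held with both other pseudocounts, no filter, a mean of at least 50, a prior without trend, the replicate block and each left-out library (0 to 0 called). Replicate numbers did not pair the libraries (correlations of deviations -0.70 to 0.06). With the replicate block, 0 members were called, and 0 to 351 of all genes were; with crossed numbers the counts were 0 and 52 to 1125. In the order Zbp1-/- average, Tfam+/- average, interaction, double mutant against Zbp1-/-, against Tfam+/- and against WT, Zbp1-/- against WT and Tfam+/- against WT, members called were 5, 3, 1, 3, 6, 3, 2 and 2 with the shared term and 4, 2, 1, 3, 6, 3, 2 and 3 in the other 6 libraries. In the same order, the fit with the shared term called 57.5%, 25.6%, 16.9%, 23.8%, 45.6%, 42.5%, 35.6% and 15.6% of all genes. The shares in the other 6 libraries are given above. Beside such shares, these counts alone do not set the members apart from all genes. With the GC trend removed, 2 members were called in Zbp1-/- against WT (8.02% of all genes) and 2 in Tfam+/-Zbp1-/- against Tfam+/- (17.8%). The Tfam+/- average then had 1 (5.37%) and the Zbp1-/- average 2 (20%). TMM scaling called 1 (Hspe1) in the Zbp1-/- average, where it called 759 of the 13267 genes, and fitting only the genotypes compared called 3 in Tfam+/-Zbp1-/- against WT (Hspd1, Clpp and Htra2), where it called 5935 of them. The cause of these differences between settings was not tested. The fits of 6 libraries or 2 genotypes also used fewer libraries.

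The member median in Tfam+/-Zbp1-/- against Tfam+/- went from -0.10 to 0.10 without Tfam+/- replicate 1 and in the other 6 libraries. In that comparison Hspa9 (0.02) reversed to -0.070 with the shared term, -0.093 in the other 6 libraries and -0.23 with the GC trend removed, and Htra2 (-0.12) reversed to 0.17 and 0.16 in the first 2 of these. Htra2 in Tfam+/-Zbp1-/- against Zbp1-/- (-0.11) reversed to 0.17 and 0.18. Depth is known only as normalized totals, so counting error per gene was not estimated.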
